A study of Mus musculus with 12 samples.

Results

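Pdzd7 and Reep6 were 2 of the 12591 genes measured by RNA sequencing in mouse embryonic fibroblasts, and were found in the table by their Ensembl identifiers (ENSMUSG00000074818 and ENSMUSG00000035504). They were chosen by their log2 fold changes against control in cells given S-adenosylmethionine (SAM) or adenine, where both fell steeply, so these comparisons are described and not tested. The cells came from embryos of heterozygous PER2::LUC knock-in mice of the C57 background, in which luciferase is fused to the circadian clock protein PER2. The paper describes its PER2::LUC fibroblasts as immortalized and lists them as a cell line that the authors prepared. Confluent dishes were kept for 24 h in medium with 3.3 mM HCl alone (CTL), or in medium that also held 10 μM deazaneplanocin A (DZ, an inhibitor of the enzyme AHCY), 1 mM adenine, or 1 mM SAM. Every dish, CTL included, received the same HCl, and each group had 3 replicate dishes. The dishes are replicates of culture and treatment, and no source used here says that they came from separate animals, so p-values measure the spread between dishes.

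SAM is the methyl donor of most cellular methylation reactions, and AHCY removes the S-adenosylhomocysteine that these reactions leave behind. PDZD7 is a scaffold protein with PDZ domains that belongs to the ankle-link complex at the base of the stereocilia of inner ear hair cells, together with other scaffold proteins such as whirlin (WHRN), and its gene is a modifier of Usher syndrome. REEP6 belongs to the receptor expression-enhancing proteins, membrane proteins that bend the endoplasmic reticulum (ER), and is known for its role in rod photoreceptors, where its loss causes retinal degeneration. Neither gene is a standard fibroblast marker.

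Each library held between 45649534 and 56789090 reads on listed genes. Of 10 fibroblast markers, 8 were in the table, with a summed level between 15862 and 28259 CPM (reads scaled to a common library size), while Dcn and Lum were not listed. None of 8 hair cell markers was listed, only Rom1 of 10 rod photoreceptor markers was (at 1.48 to 3.42 CPM), and only Cd68 of 6 leukocyte markers was. Summed fibroblast markers were at 21841 to 22281 CPM in CTL, 27665 to 28259 in DZ, 24224 to 26540 in adenine, and 15862 to 17240 in SAM. Cd68 was at 3.03 to 4.0 CPM in CTL, 2.73 to 3.78 in DZ, 10.8 to 12.3 in adenine, and 15.6 to 17.7 in SAM. The part of these markers in the changes of Pdzd7 and Reep6 was not tested. In RNA from whole dishes, fewer cells with a transcript and less of it per cell cannot be told apart.

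Pdzd7 lies on the minus strand of chromosome 19, from 45015345 to 45035127 in the mouse genome build GRCm39, with 11 annotated transcripts, and the canonical one has 16 exons and 3849 bases. Reep6 lies on the plus strand of chromosome 10, from 80165787 to 80172275, with 6 annotated transcripts and a canonical one of 5 exons and 2127 bases. The 2 genes are thus on different chromosomes. The stretch before the RefSeq start of Pdzd7 is shown as a description of its sequence. It covers 250 bases in the older build GRCm38.p6 at chr19:45045773-45046022 on the minus strand. This stretch was not placed on the GRCm39 positions above. Its place relative to the Pdzd7 start given there, and to Sfxn3, which overlaps that start on the opposite strand, was not determined. Reep6 was not in the promoter table, so the 2 genes could not be compared in this respect. The capitals mark the only match to TGATGNAA, the composite C/EBP-ATF element bound by factors of the amino acid and stress response, read here on the opposite strand.

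Pdzd7 upstream: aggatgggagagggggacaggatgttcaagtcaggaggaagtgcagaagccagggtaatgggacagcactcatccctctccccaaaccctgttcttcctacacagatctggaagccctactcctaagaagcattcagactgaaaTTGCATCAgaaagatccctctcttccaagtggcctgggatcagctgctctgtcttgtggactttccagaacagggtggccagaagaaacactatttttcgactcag

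The match ran from base -106 to base -99, counted back from the start site. Such a match was present on either strand in 3.45% of 32851 RefSeq windows of the same length, and in 1.87% of the 11287 windows of genes in the table. The E-box CACGTG (6.02% of windows), the GC box GGGCGG (32.7%), the CCAAT box CCAAT (33.8%), and TAATCC, the core of the site of the photoreceptor factor CRX (6.25%), were each searched on both strands and had no match in this window of Pdzd7. The motifs do not overlap one another in this stretch, as only one was found. A match of letters describes the sequence and does not show that a factor binds there.

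In CTL, Pdzd7 was at 5.21, 5.12, and 5.17 log2 CPM in replicates 1, 2, and 3. It was at 4.39, 4.23, and 4.50 log2 CPM in the DZ libraries, and at 2.02, 2.13, and 2.61 in the adenine libraries. In SAM its level was 0.43, 0.22, and 0.68 log2 CPM. The 4 groups did not overlap, the SAM libraries were lowest, and the adenine libraries stood between DZ and SAM. Adenine replicate 3 lay above the other two, and the adenine group had the widest spread of the gene. Group means were 5.17 ± 0.048 log2 CPM (SD, n = 3) in CTL, 4.37 ± 0.14 in DZ, 2.26 ± 0.32 in adenine, and 0.44 ± 0.23 in SAM.

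Reep6 started from a higher level, with 6.53, 6.54, and 6.61 log2 CPM in the CTL libraries. The DZ libraries gave 6.18, 6.07, and 6.13 log2 CPM for Reep6, the adenine libraries 3.87, 3.85, and 3.85, and the SAM libraries 2.64, 2.36, and 2.68. Again no 2 groups overlapped and the order was the same, but the 3 adenine dishes were nearly equal. The means were 6.56 ± 0.045 log2 CPM (SD, n = 3) in CTL, 6.12 ± 0.055 in DZ, 3.86 ± 0.0085 in adenine, and 2.56 ± 0.17 in SAM. Replicate 2 was the lowest library of both genes within SAM and within DZ, and replicate 3 the highest of both within SAM. This order of groups with no overlap, from CTL down to DZ, adenine, and SAM, was found in 382 of the 12591 genes (3.03%), and 67 of these (0.532% of all genes) also had a log2 fold change of -1 or less under both adenine and SAM. Since the genes were picked for their falls, nothing is read from this share.

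**Figure D1:**
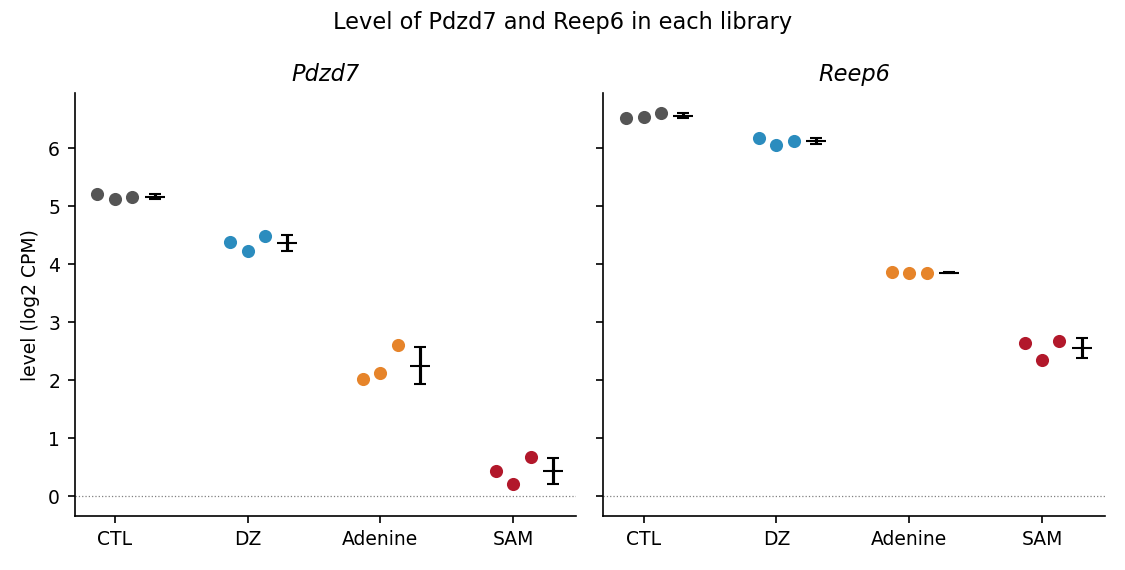
Level of Pdzd7 (left) and Reep6 (right) in log2 CPM on the vertical axis, by group on the horizontal axis. Each colored point is 1 library, and the black bar with whiskers beside each group is its mean ± SD (n = 3). The SAM libraries of Pdzd7 lie between 0.22 and 0.68, close to the dotted line at 0, and the groups do not overlap for either gene.

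The log2 levels are the deposited values, and whole reads were recovered from them as estimates. Pdzd7 had 1637 to 1659 reads per CTL library, 921 to 1064 in DZ, 218 to 301 in adenine, and 64 to 78 in SAM. For Reep6 the reads were 4084 to 4471 in CTL, 3303 to 3564 in DZ, 714 to 802 in adenine, and 289 to 368 in SAM. Taken as a count, the 64 recovered reads of Pdzd7 in SAM replicate 2 gave an exact 95% Poisson interval from 49.3 to 81.7. It covers counting error only. Since recovered reads are estimates from values that StringTie derives from coverage, the interval is approximate. In the adenine libraries Pdzd7 was at 4.01, 4.35, and 6.08 CPM in replicates 1, 2, and 3, and Reep6 was at 14.6, 14.4, and 14.4 CPM.

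On the linear scale and without the prior count that the authors' software adds, Pdzd7 went from 35.9 ± 1.20 CPM (SD, n = 3) in CTL to 20.7 ± 1.94 in DZ, 4.81 ± 1.11 in adenine, and 1.33 ± 0.217 in SAM. These means are 57.7%, 13.4%, and 3.71% of the CTL mean. Reep6 went from 94.5 ± 2.98 CPM in CTL to 69.7 ± 2.66 in DZ, 14.5 ± 0.0853 in adenine, and 5.87 ± 0.692 in SAM, or 73.8%, 15.3%, and 6.22% of its CTL mean. Divided by the length of the canonical transcript, the CTL levels were 9.32 CPM per kb for Pdzd7 and 44.4 for Reep6, and the SAM levels were 0.346 and 2.76. Among the listed genes, 51.7% had a lower CTL mean in log2 CPM than Pdzd7 and 79.4% a lower one than Reep6, whereas under SAM only 0.604% and 13.3% of genes were lower.

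The table has a floor that bears on Pdzd7. Genes had to reach 1 CPM in every library to be kept by the authors, and the lowest value in the whole table was -0.0029 log2 CPM. Pdzd7 in SAM replicate 2, at 0.22 log2 CPM, was a little above it, and only 145 genes had a lower minimum. From its CTL mean, the deepest fall that the table could show for Pdzd7 was 5.17 on the log2 scale, and for Reep6 it was 6.56. A gene that fell below the floor in any library would not be listed, so the ranks given here hold among listed genes only.

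The log2 fold change of Pdzd7 was -4.72 under SAM (standard error 0.14), rank 1 among the falls of the 12591 genes, and -2.91 under adenine (standard error 0.14), rank 2. For Reep6 it was -4.01 under SAM (standard error 0.069) and -2.70 under adenine (standard error 0.069), rank 3 in both. Trib3, a pseudokinase of the stress response, stood between them under SAM with -4.05, and Cdsn, which encodes corneodesmosin, came next after Reep6 with -3.87. Under adenine, the interferon-inducible gene Ifi44 (-3.20) was above Pdzd7 and Acox2, a peroxisomal acyl-CoA oxidase gene (-2.57), was below Reep6. These values chose the genes and are given with no p. At the same concentration of 1 mM, the log2 difference of SAM minus adenine was -1.81 for Pdzd7 (standard error 0.14) and -1.30 for Reep6 (standard error 0.069). All 3 SAM libraries were below all 3 adenine libraries for both genes. Limma called 5382 of the 12591 genes between SAM and adenine, and 48.6% of these calls were higher in SAM. A difference between these groups was thus common in either direction. Since both groups had chosen the genes, their separation is described only.

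DZ was not used to pick the genes, although its comparison shares the CTL dishes with those that were. Both genes fell under DZ. For Pdzd7 the log2 fold change was -0.80 ± 0.14 (SE), with adjusted p = 1.86e-04 by limma after Benjamini-Hochberg correction across the table, and for Reep6 it was -0.44 ± 0.069 (SE), with adjusted p = 6.51e-05 by limma. Each DZ library lay below each CTL library for both genes. Lower expression under DZ was called for 23.4% of all genes and higher expression for 22.6% at the false discovery rate (FDR) of 0.01 that the study used, so a fall of this kind was common. By size, Pdzd7 ranked 247 and Reep6 ranked 1185 among the falls under DZ. DZ was given at 10 μM, so its values stand beside those of SAM and adenine without a comparison of doses.

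The mean difference in level between the 2 genes varied in value from group to group. The log2 value of Pdzd7 minus that of Reep6 averaged -1.40 ± 0.070 (SD, n = 3) in CTL, -1.75 ± 0.11 in DZ, -1.60 ± 0.32 in adenine, and -2.11 ± 0.10 in SAM. Between DZ and CTL this difference of log2 values changed by -0.36, with every DZ library beyond every CTL library (two-sided exact permutation p = 0.1, the smallest that 3 dishes against 3 allow). Adenine replicate 3 (-1.24) was above all CTL libraries (-1.45 to -1.32), so adenine and CTL overlapped in this measure. All 3 SAM libraries (-2.20 to -2.0) were below all others. The SAM and adenine values had chosen the genes, so they are described only.

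The relatives of Reep6 in shaping the ER showed no comparable fall under SAM or adenine. For Atl1, with a CTL mean of 1.99 log2 CPM, the floor of the table did not allow one. Of 19 listed genes for REEP proteins, reticulons, atlastins, and other proteins of ER tubules and sheets, 15 were in the table, and limma called 12 of them under SAM, of which 8 rose and 4 fell. Adenine gave 12 calls (10 rises, 2 falls) and DZ gave 9 (2 rises, 7 falls). Over all genes, 69.3% were called under SAM (33.7% higher, 35.7% lower), 61.6% under adenine (30.6% higher, 31.0% lower), and 45.9% under DZ. The median log2 fold change of these genes was 0.14 under SAM, 0.29 under adenine, and -0.13 under DZ, against -0.015, -0.0030, and -0.0057 over all genes, and the lowest of the 15 were at -0.51, -0.47, and -0.42. Under SAM the calls became 10 higher and 2 lower when libraries were scaled by plain read totals. With quantile normalization they became 8 higher and 2 lower.

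Within the REEP family, Reep3, Reep4, and Reep5 were listed, and Reep1 and Reep2 were not. Reep5, a founding member of the family that shapes ER tubules, rose slightly in all 3 treatments, with log2 fold changes of 0.12 under DZ, 0.13 under adenine, and 0.14 under SAM (adjusted p = 0.0025, 5.92e-04, and 4.09e-04 from limma), and its call under DZ was lost without CTL replicate 1, CTL replicate 2, or DZ replicate 2. Reep4, which with Reep3 clears ER from chromosomes in mitosis, rose by 0.85 under SAM and 0.46 under adenine and fell by 0.27 under DZ, a call that was lost without CTL replicate 1, CTL replicate 3, or DZ replicate 1. Reep3 rose by 0.43 under adenine, fell by 0.20 under DZ, and stood at 0.016 under SAM on the log2 scale (adjusted p = 0.636 from limma), although both other scalings would call a rise of 0.14 and 0.096, respectively.

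Other ER genes moved by less than 1 on the log2 scale. Ckap4, a protein of ER sheets, rose by 0.90 under SAM and 0.69 under adenine. Arl6ip1 rose by 0.67 and 0.46, and the reticulon gene Rtn4 by 0.38 and 0.29, respectively. Tmem33, an ER membrane protein that binds reticulons, fell by 0.51 under SAM, 0.47 under adenine, and 0.27 under DZ.

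The partners of Pdzd7 were mostly not listed. Of 17 genes for Usher and stereocilia proteins, 7 were in the table. SAM raised 2 and lowered 5 of the 7 (69.3% of all genes were called), adenine raised 1 and lowered 4 (61.6% of all genes called), and DZ raised 2 and lowered 2 (45.9% of all genes called). Their medians were -0.28, -0.27, and -0.075 on the log2 scale. No listed partner fell as far as Pdzd7 under SAM or adenine. Whrn and Cib2 had CTL means of 2.99 and 3.17 log2 CPM. The floor of the table thus did not allow them a fall as deep as that of Pdzd7 under SAM.

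Whrn, which encodes the scaffold whirlin of the ankle-link complex, had log2 fold changes of -1.61 under SAM, -0.98 under adenine, and -1.50 under DZ (adjusted p = 1.51e-09, 8.1e-07, and 2.07e-08 from limma). Its CTL level was 2.99 ± 0.078 log2 CPM (SD, n = 3), and its means were 1.37 in SAM, 2.01 in adenine, and 1.49 in DZ. Under DZ its fall was thus larger than that of Pdzd7 in value, although the difference between the 2 genes was not tested. Myo7a, the motor protein of Usher syndrome type 1, fell by 0.75 under SAM and 0.46 under adenine. Triobp, which bundles actin in the rootlets of stereocilia, rose by 0.70 and 0.35. Eps8, an actin regulator at stereocilia tips, fell by 0.28 and 0.27 but rose by 0.59 under DZ. Cib2, named after its values were seen as the other gene lower under DZ, fell by 0.77 there and rose by 0.46 under SAM. With quantile normalization the calls under DZ were 1 higher and 2 lower, and with plain read totals those under SAM were 2 higher and 4 lower.

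**Figure D2:**
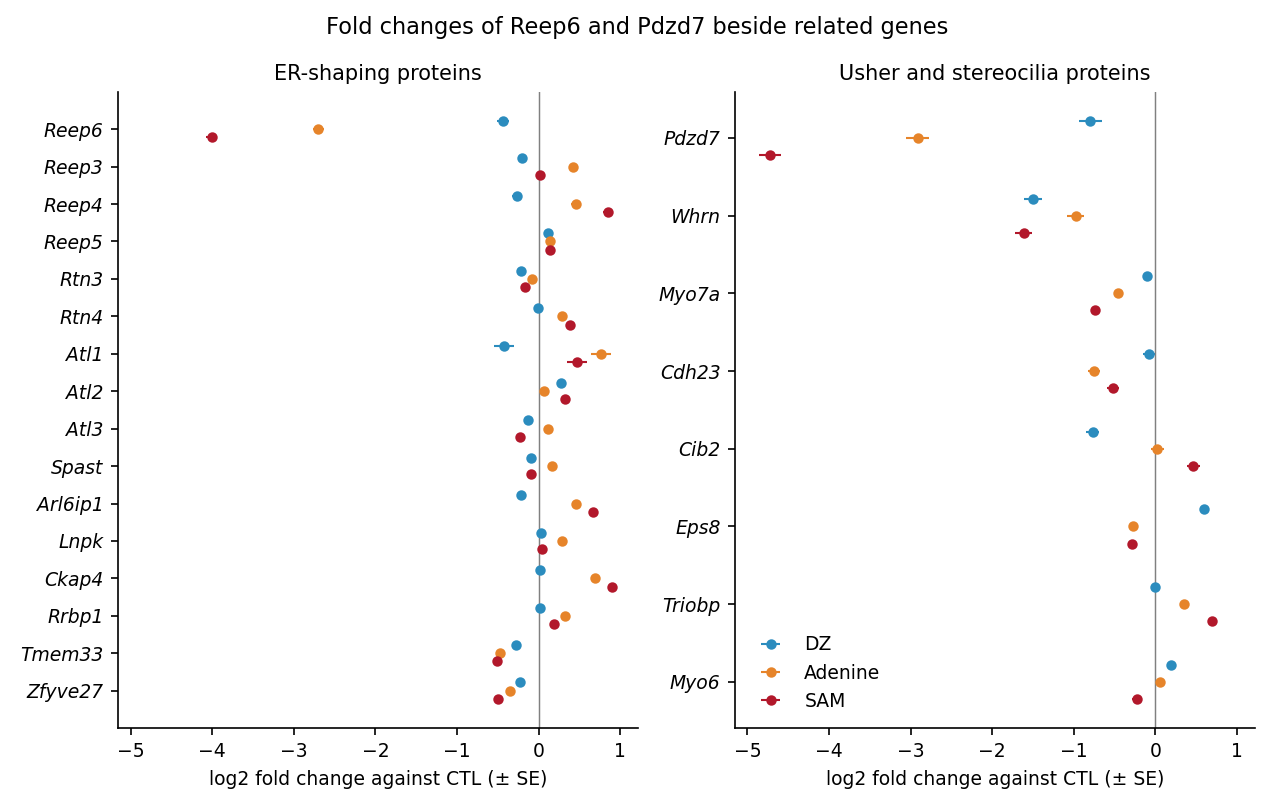
Log2 fold change against CTL (horizontal axis, with standard errors) of Reep6 and 15 ER-shaping genes (left) and of Pdzd7 and 7 Usher and stereocilia genes (right), with a color for each treatment. Reep6 at -4.01 and Pdzd7 at -4.72 under SAM stand far to the left, while every related gene except Whrn lies within 1 of 0.

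Under SAM and adenine, the listed genes that lie beside Pdzd7 fell far less than it or did not fall. Sfxn3, a mitochondrial serine transporter gene, starts head to head with it on the opposite strand and overlaps it by 33 bases, and Lzts2, named with the overlap after its values were seen, runs into its 3′ end with 207 shared bases. An antisense long noncoding RNA gene, 9430030N17Rik, shares 1990 bases with Pdzd7 and is not listed. The library kit keeps the strand, but the sources used here do not say whether the counting did, so reads in these shared stretches could have been given to either gene. Sfxn3 fell by 0.68 under SAM, 0.27 under adenine, and 0.36 under DZ, and Lzts2 had log2 fold changes of -0.026, -0.075, and 0.11, of which limma called only the last, and not without CTL replicate 2 or DZ replicate 2. With plain read totals Lzts2 would be called higher under SAM (0.096). Kazald1, whose start is 28.3 kb from that of Pdzd7, rose by 1.47 under SAM. Poll, whose start is 514.2 kb away, rose by 1.27. Under DZ, against -0.80 for Pdzd7, log2 fold changes were -0.76 for Kazald1 and -0.89 for Sema4g, and limma called both. Both genes were near the floor of the table. Mean levels in CTL and DZ were 1.02 and 0.27 log2 CPM for Kazald1, and 1.27 and 0.38 for Sema4g. In the other direction, Mrpl43 rose by 0.57 under DZ and was called. Sema4g and Mrpl43 were named after their values were seen.

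Reep6 has Pcsk4 head to head on the opposite strand, with 422 bases between them. Pcsk4, a proprotein convertase gene, fell by 0.74 under SAM and 0.90 under adenine, and under DZ its log2 fold change of -0.17 was not called (adjusted p = 0.14 from limma). Adamtsl5, the nearest listed gene on the other side, with 19.1 kb between the start sites, fell by 0.30 under SAM and 0.58 under adenine and rose by 0.20 under DZ, a call that was lost without CTL replicate 2. Gamt, which encodes the SAM-dependent enzyme that makes creatine and lies on the side of Pcsk4, rose by 1.53 under SAM and 1.16 under adenine. Over the 20 flanking genes of the table, 5 on each side of each start site by their own start sites, 14 were called under SAM (7 rises, 7 falls), 14 under adenine (8 rises, 6 falls), and 15 under DZ (7 rises, 8 falls). These are 70.0%, 70.0%, and 75.0% of the 20, against 69.3%, 61.6%, and 45.9% of all genes. Their median log2 fold changes were 0.018, 0.043, and 0.013. None fell as far as Pdzd7 or Reep6 under SAM or adenine, and the lowest values were -0.87 under SAM and -1.17 under adenine. For some of them the floor of the table settled this in advance. Kazald1, Sema4g, Gamt, Dpcd, Pcsk4, and Poll had CTL means from 1.02 to 3.72 log2 CPM, too low for such a fall under SAM. Other scalings changed the split, to 10 higher and 6 lower under SAM with plain read totals and to 6 higher and 8 lower under adenine with quantile normalization.

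**Figure D3:**
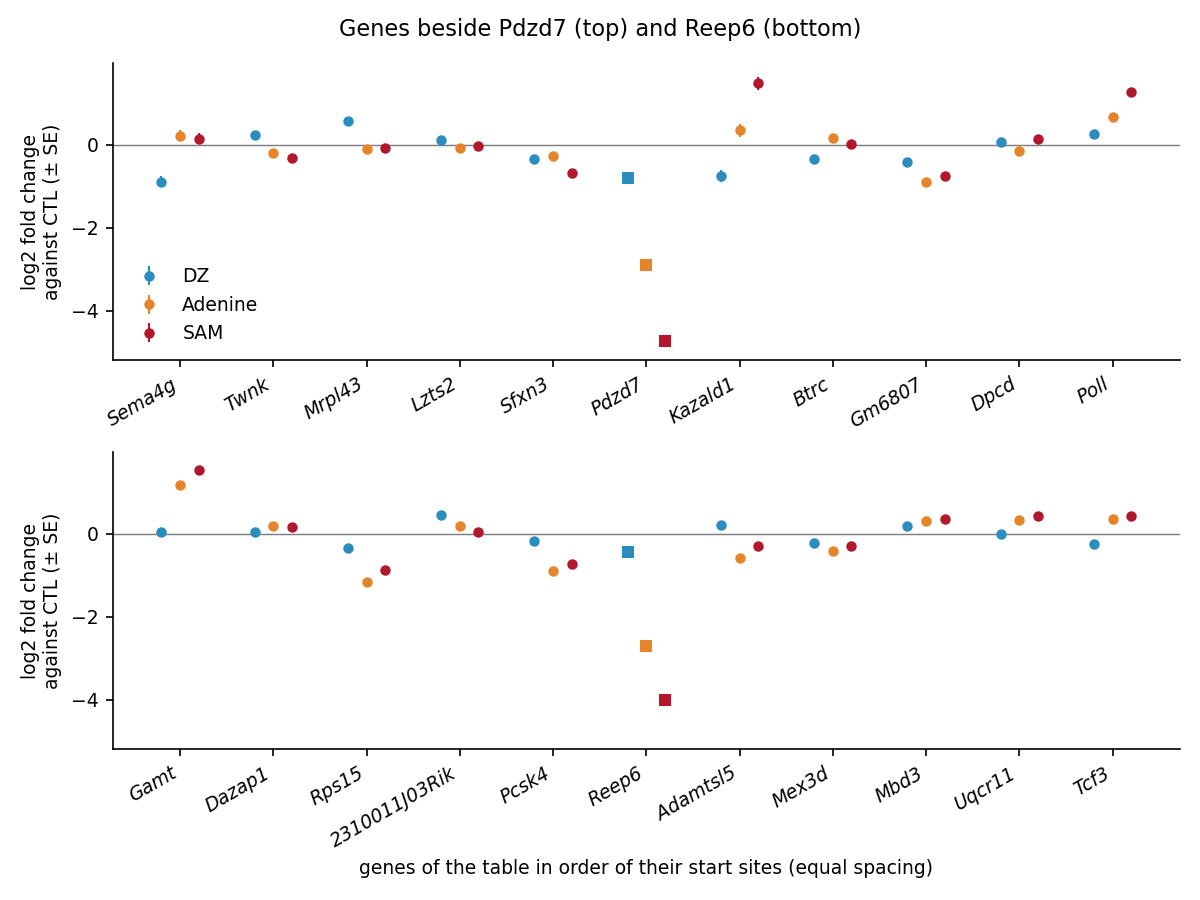
Log2 fold change against CTL (vertical axis, with standard errors) of the 5 listed genes on each side of the start sites of Pdzd7 (top) and Reep6 (bottom), in order of their own start sites at equal spacing. The genes from Btrc to Poll start 317.0 to 514.2 kb from the start of Pdzd7. Circles are flanking genes and squares are Pdzd7 and Reep6, with a color for each treatment. No flanking gene is below -1.17, while the squares reach -4.72 and -4.01.

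The profiles of Pdzd7 and Reep6 over the 12 libraries were compared with those of all genes in the table. The measure of likeness was the root mean square difference between the log2 values of genes, each taken relative to its own CTL mean. By it Reep6 was the gene nearest to Pdzd7 of all in the table, at 0.44, followed by AI115009 (0.66), Cdsn (0.81), the linker histone gene H1f2 (0.89), and Acox2 (0.92). The genes nearest to Reep6 were AI115009 (0.41), Pdzd7 (0.44), Acox2 (0.50), Cdsn (0.52), and Paqr3, a Golgi membrane protein gene (0.54). Genes near in this measure must fall by a like amount, and the steep falls had chosen the pair. The nearness of Pdzd7 and Reep6 by it is therefore not independent evidence.

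The nearest genes differed in where they fell. AI115009 had log2 fold changes of -0.85 under DZ, -2.09 under adenine, and -3.75 under SAM, and H1f2 had -0.66, -1.87, and -3.34. Against Pdzd7, these were close under DZ and higher under adenine and SAM. Cdsn had -0.16, -1.72, and -3.87. Acox2 (-0.19, adjusted p = 0.12 from limma) and Paqr3 (0.051, adjusted p = 0.673 from limma) were not called under DZ. Divided by each gene's own SD, so that the shape counts and not the size, the profiles gave other neighbors, with none of the 5 shared for either gene. Itih2 was then nearest to Pdzd7 and Mknk1 nearest to Reep6, while Reep6 was at rank 9 for Pdzd7 and Pdzd7 at rank 12 for Reep6.

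**Figure D4:**
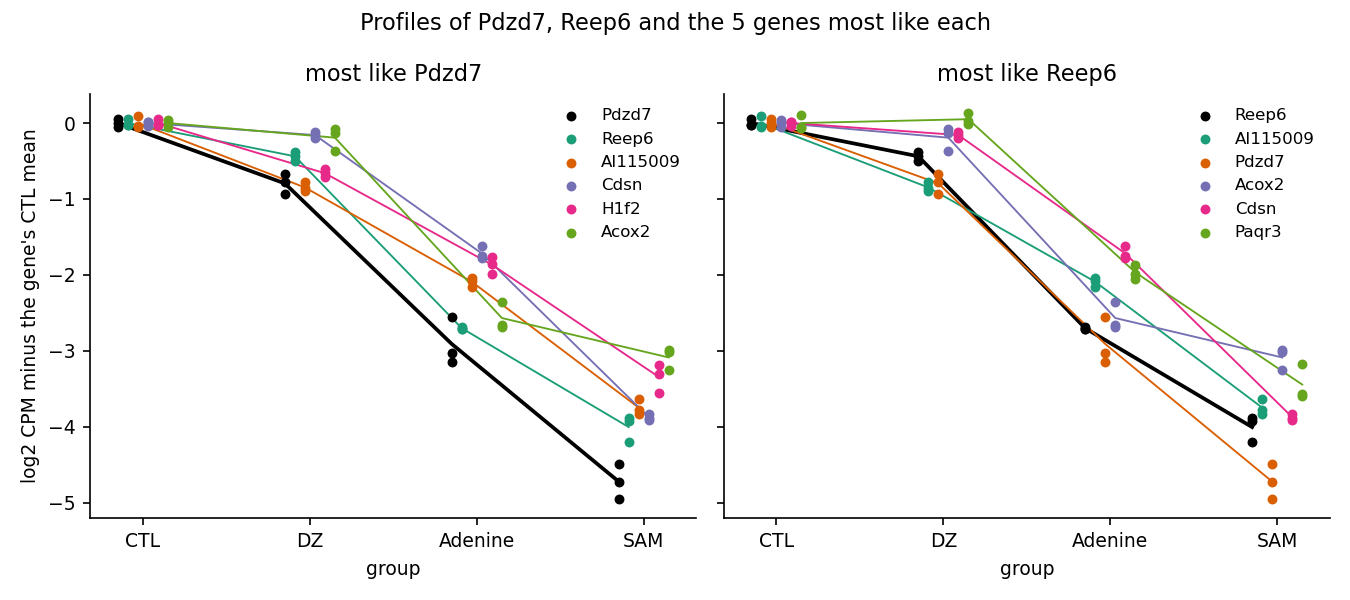
Log2 CPM relative to the gene's own CTL mean (vertical axis) by group, for Pdzd7 (left, black) and Reep6 (right, black) with the 5 genes nearest to each in color. Points are the 12 libraries and lines join group means. In SAM the points of Pdzd7 lie below those of all 5 neighbors, and in DZ the mean of AI115009 is at -0.85 and that of Paqr3 at 0.051.

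As Trib3 is next to the pair in the ranking under SAM, genes controlled by the stress transcription factor ATF4 were placed beside them, with Atf4 itself. ATF4 is made when amino acids run short or unfolded proteins build up, and switches on amino acid transporters, synthesis enzymes, and the factor CHOP (Ddit3). The list of 25 was written after some of its genes had been seen among the first in a supplementary table of these samples, so its direction is not independent evidence. All 25 were listed, and 23 were lower under SAM and none higher (against 35.7% of all genes lower). Under adenine 18 were lower and 1 was higher (31.0% and 30.6% of all genes), and under DZ 3 were lower and 13 higher (23.4% and 22.6% of all genes). The medians were -2.05, -0.43, and 0.14. Under adenine, 3 of the calls were higher and 16 lower with plain read totals, and 3 higher and 15 lower with quantile normalization. Atf4 itself, counted among the 25, had log2 fold changes of -1.07 under SAM, -0.27 under adenine, and -0.021 under DZ. Limma called it lower under SAM and adenine but not under DZ, and the call under adenine was lost with quantile normalization.

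Under SAM only Trib3 (-4.05) fell below Reep6 (-4.01), and no ATF4 target fell as far as Pdzd7. Aldh1l2, a mitochondrial folate enzyme gene, had log2 fold changes of -3.48 under SAM, -0.71 under adenine, and 0.22 under DZ. The lipoprotein receptor gene Vldlr had -2.77, -0.48, and 0.014, and the transcription factor gene Atf5 had -2.64, -0.56, and -0.65. The lowest value of the list under adenine was -1.25, well above the -2.91 of Pdzd7 and the -2.70 of Reep6. Under DZ the 3 genes called lower were Trib3 (-0.13), Atf5 (-0.65), and Ddit4 (-0.24), the last named after its values were seen, and the call of Trib3 was lost with either other scaling and without any 1 of the 6 libraries. Among the higher calls, those of Ppp1r15a and Slc6a9 were also lost without any 1 of the 6. The higher call of Cebpb was lost without CTL replicate 2, DZ replicate 2, or DZ replicate 3. Ppp1r15a, Slc6a9, and Cebpb were named after their values were seen. Of 22 genes of this list with a RefSeq window, 5 (Asns, Chac1, Nupr1, Slc7a11, and Vldlr) had a match to the composite element that was found before Pdzd7. Such a match was present in 3.45% of all 32851 windows and in 1.87% of those of genes in the table. A link between Pdzd7 and ATF4 was not tested.

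**Figure D5:**
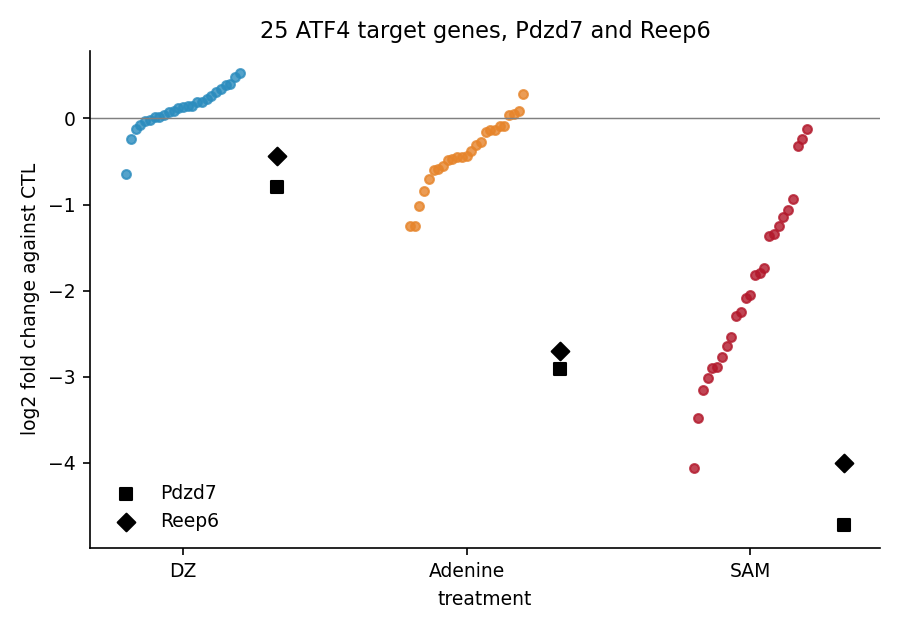
Log2 fold change against CTL (vertical axis) of the 25 genes of the ATF4 list, which include Atf4 itself, in each treatment. Colored points are sorted by value, with Pdzd7 as black squares and Reep6 as black diamonds. Under adenine both black symbols lie below all 25 points, which reach down to -1.25, and under SAM only Trib3 is below Reep6.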

How the data were processed

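RNA of 12 libraries (CTL, DZ, adenine, and SAM, 3 dishes each) was sequenced, and the authors trimmed reads with Trimmomatic, aligned them to GRCm39 with HISAT2 guided by GENCODE vM27, quantified transcripts with StringTie, and applied edgeR to genes that reached 1 CPM in every library. The deposited values are log2 CPM on normalized library sizes, made by the authors for 12591 genes. The method of the scaling factors was not given in the sources used here. Pdzd7 and Reep6, and the gene lists, were chosen with earlier results of these data known.

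Whole reads were recovered by solving for the library size with a prior count of 2, and 100% of values came out whole within 0.05 of a read. These are estimates, since StringTie works from coverage. Genes were tested with limma 3.58.1 in R 4.3.3 on the deposited values, with the 4 groups in 1 linear model and trended variances, at a Benjamini-Hochberg FDR of 0.01. The fits were tested on simulated data. The replicate numbers share no stated batch, and their check is given with the alternatives. Symbols, lengths, and positions come from GENCODE vM39 (12575 of 12591 genes matched), and the upstream window from RefSeq on GRCm38.p6, for 1 of the 2 genes. Named genes are Pdzd7 and Reep6, their neighbors in rank, the REEP family, per list at most 4 others that had the lowest adjusted p under SAM, the nearest flanking genes and those called under SAM that moved by 1 or more on the log2 scale, and the 5 nearest profiles. The alternatives tried were a robust empirical Bayes step, untrended variances, a filter at a mean log2 value of 3, quantile normalization, plain read totals, a pseudocount of 1 CPM, voom on recovered reads, a separate model, a replicate block, an FDR of 0.05, and leaving out each library. Python 3.11.15 with numpy 2.4.6, pandas 2.3.3, scipy 1.17.1, and matplotlib 3.10.9 was used for tables and plots.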

Additional observations from a re-analysis of the deposited data

How the results depend on the processing

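The falls of Pdzd7 and Reep6 under DZ kept their direction and their call in all 15 other fits of each, with log2 fold changes between -0.86 and -0.72 for Pdzd7 (largest adjusted p = 0.00152 from limma) and between -0.46 and -0.41 for Reep6 (largest adjusted p = 6.1e-04 from limma). A pseudocount of 1 CPM, which by its construction shrinks low values, gave -3.96 for Pdzd7 and -3.79 for Reep6 under SAM, -2.62 for Reep6 under adenine, and -1.29 for Pdzd7 in SAM against adenine. Plain read totals gave -2.64 for Reep6 under adenine. They moved the median of all genes under SAM from -0.015 to 0.11, and the share of called genes that were higher from 48.5% to 61.2%. Leaving out 1 library gave -4.84 to -4.61 for Pdzd7 and -4.07 to -3.90 for Reep6 under SAM, and -3.09 to -2.79 and -2.72 to -2.68 under adenine. The counts of called list genes stayed within 1.5 times of those reported in every alternative run. With the replicate block, the log2 fold changes under DZ were -0.80 for Pdzd7 (adjusted p = 3.35e-05 from limma) and -0.44 for Reep6 (adjusted p = 4.49e-05 from limma), and 5762, 7739, and 8734 genes were called under DZ, adenine, and SAM, against 5782, 7753, and 8731 without it. The block lowered the standard error from 0.14 to 0.11 for Pdzd7 and from 0.069 to 0.061 for Reep6. Same-numbered libraries had correlations of their deviations from the group means between -0.14 and 0.18 across genes. Of 12 libraries, 4 correlated best with their own number. This check gave no sign of pairing across all genes, but with 3 dishes per group it cannot exclude pairing. Of the 5 genes nearest in profile, 0 remained for either gene after division by the SD. Depth limits Pdzd7 under SAM most, with 64 to 78 reads per library.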
